A study of Mus musculus with 51 samples.

Results

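The Clec genes are the mouse genes for C-type lectin domain proteins whose symbol is Clec followed by a number and letters. They were chosen by symbol, without use of their levels, and each was read from whichever of its probe sets was brightest on average over all arrays. This gave 26 Clec genes, read by 36 probe sets, of 18193 genes measured. A further 8 Clec symbols of the gene table matched no probe set of a single gene and were not analysed here, Clec12a and Clec9a among them. 1 probe set shared by Clec4b1 and Clec4a2 was left out.

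C-type lectins share a fold that in many members binds sugars in the presence of calcium. Many Clec proteins of myeloid cells are pattern receptors: they recognise fungal, mycobacterial or damaged-cell ligands and signal through the kinase Syk, either by a motif of their own or through the adaptors Fcer1g and Tyrobp, while others carry an inhibitory motif. Members of the Clec2 branch are instead ligands of natural killer cell receptors, and some Clec proteins are secreted.

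RNA was measured on 51 Affymetrix arrays from 4 blood-forming populations that were sorted out of bone marrow by flow cytometry. The populations were haematopoietic stem cells (HSC), common myeloid progenitors (CMP), the granulocyte-macrophage progenitors they form (GMP) and common lymphoid progenitors (CLP), each from wild-type mice and from Mll-AF9 knock-in mice. Mll-AF9 joins the histone methyltransferase gene Mll to AF9 and occurs in leukaemia, and the study asked how expression in each Mll-AF9 population departs from the same wild-type population. After repeat runs of CMP replicates were averaged there were 43 replicates: for HSC 5 wild-type and 5 Mll-AF9, for CMP 5 and 4, for GMP 5 and 4, and for CLP 8 and 7. The knock-in is an allele of the germ line, and no driver, Cre, agent, dose or time appears in the labels. Strain, age and zygosity do not appear in the labels, nor whether each replicate was a separate mouse. The p-values therefore describe only how these samples scatter, and part of that scatter may be technical.

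All levels below are log2 RMA intensities, and differences are on that scale. A level under 4.61 was taken as background. A level of 1 probe set was never set against that of another. Between 53.4% and 60.4% of genes lay above background in a replicate. Population markers were checked against the labels. All 4 GMP markers were higher in wild-type GMP than in CMP, CLP and HSC. All 4 erythroid and megakaryocyte markers were higher in CMP than in CLP and HSC. All 4 CLP markers were higher in CLP than in GMP and CMP. The GMP markers averaged 8.96 in wild-type CMP, 9.65 in CLP and 9.15 in HSC, so they did not set CMP apart as myeloid. Whether the CMP samples hold mostly erythroid and megakaryocyte progenitors was not tested. CLP and HSC were less clearly parted: 2 of the 4 CLP markers were higher in CLP than in HSC, and the 5 HSC markers, none of them called, had a median CLP minus HSC difference of -0.21 and list means of 7.47 and 7.75. For 8 samples the title says CLP while the source name says CMP: all 7 Mll-AF9 CLP replicates and wild-type CLP replicate 1. The title was followed, and the CLP marker Il7r averaged 9.49 in Mll-AF9 CLP and 4.15 in Mll-AF9 CMP. CMP intensities were deposited with more decimals than the others, so a difference between CMP and another population cannot be told apart from separate processing of the CMP arrays. In sorted bulk samples, fewer cells of a type and less RNA per cell cannot be told apart. Y-linked genes averaged above 6 in 2 of 5 HSC, 3 of 5 CMP, 3 of 5 GMP and 6 of 8 CLP wild-type replicates and in 0 Mll-AF9 replicates, so genotype overlaps with the sex of the mice.

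Promoters of 5 Clec genes on chromosome 6 are shown, because their levels had the widest ranges among the Clec genes. Of the 26 Clec genes, 19 lie on chromosome 6. Each sequence runs 5′ to 3′ on the strand of the gene, from 250 bases before to 50 after the start, and comes from RefSeq on GRCm38.p6. Capitals mark GAGGAA, the core of a PU.1 box, and TTGCNNAA, a C/EBP motif in which N is any base, on either strand. PU.1 and C/EBP proteins are the chief transcription factors of granulocyte and macrophage progenitors. The windows are chr6:129472730-129473029 (minus strand) for Clec7a, chr6:123122440-123122739 (plus) for Clec4a2, chr6:40585756-40586055 (minus) for Clec5a, chr6:123289822-123290121 (minus) for Clec4e and chr6:123261857-123262156 (plus) for Clec4d.
Clec7a: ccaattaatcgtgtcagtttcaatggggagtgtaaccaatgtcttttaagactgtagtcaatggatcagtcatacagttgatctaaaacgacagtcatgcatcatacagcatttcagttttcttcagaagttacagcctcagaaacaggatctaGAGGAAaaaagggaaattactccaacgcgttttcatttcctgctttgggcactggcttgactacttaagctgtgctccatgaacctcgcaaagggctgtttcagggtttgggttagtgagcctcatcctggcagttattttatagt
Clec4a2: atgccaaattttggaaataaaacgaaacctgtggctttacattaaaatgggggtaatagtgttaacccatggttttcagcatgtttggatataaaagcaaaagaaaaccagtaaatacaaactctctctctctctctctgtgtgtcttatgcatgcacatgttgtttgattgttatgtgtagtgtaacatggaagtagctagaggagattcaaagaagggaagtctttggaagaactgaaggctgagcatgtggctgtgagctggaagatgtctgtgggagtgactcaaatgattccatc
Clec5a: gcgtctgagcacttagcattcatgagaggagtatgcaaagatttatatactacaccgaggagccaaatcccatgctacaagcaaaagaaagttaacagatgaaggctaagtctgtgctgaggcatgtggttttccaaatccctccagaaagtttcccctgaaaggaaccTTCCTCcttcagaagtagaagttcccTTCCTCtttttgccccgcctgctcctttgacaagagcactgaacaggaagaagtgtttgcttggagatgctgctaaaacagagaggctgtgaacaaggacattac
Clec4e: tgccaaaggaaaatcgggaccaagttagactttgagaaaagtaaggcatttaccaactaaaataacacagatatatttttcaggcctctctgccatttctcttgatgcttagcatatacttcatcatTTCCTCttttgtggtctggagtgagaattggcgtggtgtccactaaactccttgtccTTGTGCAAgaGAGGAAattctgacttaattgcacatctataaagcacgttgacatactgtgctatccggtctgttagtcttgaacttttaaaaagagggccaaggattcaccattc
Clec4d: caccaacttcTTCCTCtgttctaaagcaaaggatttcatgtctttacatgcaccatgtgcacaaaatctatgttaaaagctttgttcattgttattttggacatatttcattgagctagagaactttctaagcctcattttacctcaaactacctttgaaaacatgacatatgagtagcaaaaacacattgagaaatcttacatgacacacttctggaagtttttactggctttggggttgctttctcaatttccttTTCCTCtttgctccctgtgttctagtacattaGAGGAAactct

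GAGGAA stood 96 bases upstream of the start in Clec7a, 81 and 55 bases upstream in Clec5a, 123 and 56 bases upstream in Clec4e, and 240 bases upstream in Clec4d, which held 2 more after the start. In Clec4e a TTGCNNAA match began 66 bases upstream, next to the nearer GAGGAA. Clec4a2 held neither motif in this window. Promoter entries existed for 22 of the 26 Clec genes, 25 entries in all. GAGGAA was in 13 of these 25 (52.0%), against 28.3% of 32817 promoters of the same length. TTGCNNAA was in 5 (20.0%) against 10.8%, the RUNX motif TGTGGT in 5 (20.0%) against 16.8%, the MEIS motif TGACAG in 8 (32%) against 19.2%, and the GATA motif AGATAA in 1 (4.0%) against 11.2%. All motifs were searched on both strands, and in the 5 promoters shown no GAGGAA match shared bases with a TTGCNNAA match. Some entries are alternative starts of 1 gene or neighbouring duplicated genes and are not independent, and a match is a description of the letters, not of binding.

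Of the 26 Clec genes, 13 had at least 1 of the 8 group means above background, against 62.8% of all genes. The other 13 stayed below it in every group, with group means from 2.52 to 4.52. Clec7a, Clec4d, Clec11a and Clec16a were above background in all 8 groups. The median range of the 8 group means was 1.97 for these 13 against 1.05 for all 11421 genes above background, and 0.66 for all 26 Clec genes against 0.72 for all genes. The heat map of group means shows the GMP columns as the brightest for Clec7a, Clec4a2, Clec5a, Clec4e and Clec11a.

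**Figure D1:**
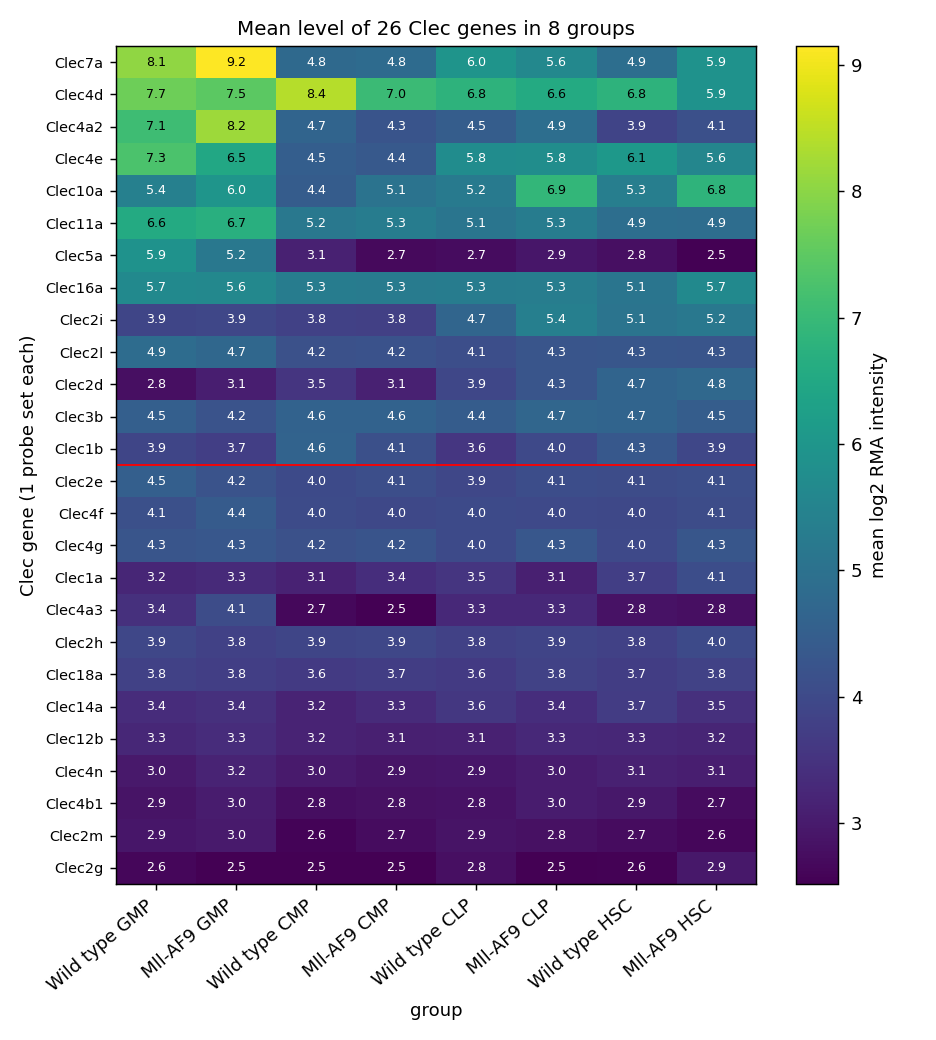
Mean log2 RMA intensity of the 26 Clec genes (rows, 1 probe set each, ordered by highest group mean) in the 8 groups (columns). The red line parts the 13 genes with a group mean above the background level of 4.61 from the 13 without; rows are probe sets of different affinity, so colours are read along a row.

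The wild-type populations were compared first, to see which Clec genes mark which population. In 1 limma model of all 8 groups, 12 of the 26 Clec genes (46.2%) differed among the 4 wild-type populations, against 51.6% of all genes, so Clec genes did not vary more often than other genes. Between wild-type GMP and CMP, 9 Clec genes (34.6%) were higher in GMP, against 20.3% of all genes, and 0 were lower, against 11.4%. Between GMP and CLP, 8 (30.8%) were higher in GMP, against 28.3%, and 2 (7.69%) were lower, against 14.7%. Between GMP and HSC, 9 (34.6%) were higher in GMP, against 24.6%, and 2 (7.69%) were lower, against 13.4%. The median difference of the 26 genes was 0.14, 0.15 and 0.14 for these comparisons, and that of all genes was 0.13, 0.15 and 0.14. The GMP comparisons share the GMP samples. A few receptors differed by large amounts while the median of the whole list sat at that of all genes. That list median includes the 13 Clec genes below background in every group, whose levels give no order. Monocyte and macrophage markers averaged 7.35 to 7.95 per wild-type GMP replicate, 5.37 to 5.91 in CMP, 6.13 to 7.22 in CLP and 5.93 to 7.34 in HSC, and their part in the Clec differences was not tested.

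Clec7a, the Dectin receptor for fungal beta-glucan, had the widest range. Its levels in wild-type GMP were 7.01, 8.69, 8.61, 7.95 and 8.00, and in wild-type CMP 4.32, 5.16, 4.50, 4.68 and 5.22. No GMP replicate overlapped a CMP replicate. The difference was 3.28 ± 0.39 (SE), with an adjusted p of 8.5e-09 by limma. Wild-type HSC lay between 4.33 and 5.75, also clear of GMP (difference 3.15 ± 0.39, adjusted p = 2.21e-08). Wild-type CLP ran from 4.81 over a median of 5.76 to 7.28, so that its highest replicate passed the lowest of GMP. GMP still exceeded CLP by 2.09 ± 0.35 (adjusted p = 6.77e-06). CMP minus CLP was -1.18 ± 0.35 (adjusted p = 0.0104). In the order GMP, CLP, HSC, CMP, the neighbours CLP and HSC (1.05, 95% interval 0.34 to 1.77, adjusted p = 0.24) and CMP and HSC (-0.13, -0.92 to 0.66, adjusted p = 0.897) did not pass the test.

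Clec4a2, an inhibitory receptor of dendritic cells and monocytes with a phosphatase-recruiting motif, was above background in every GMP replicate. Wild-type GMP gave 6.44, 7.57, 7.32, 6.96 and 7.11, and wild-type CMP 4.49, 5.28, 4.40, 3.92 and 5.21. The wild-type HSC replicates gave 3.84, 3.66, 3.56, 3.91 and 4.38, all below background. GMP was thus higher than every CMP and HSC replicate. The difference was 2.42 ± 0.53 from CMP (adjusted p = 0.00039) and 3.21 ± 0.53 from HSC (adjusted p = 4.81e-06), which is at least 5.53-fold against the background level. From CLP it was 2.60 ± 0.48 (adjusted p = 2.36e-05). Wild-type CLP ran from 3.57 to 4.83 apart from replicate 6 at 7.26, whose late neutrophil markers averaged 9.01 against 3.80 to 6.53 in the other CLP replicates. Their part in that level was not tested. Without that replicate the difference was 2.99 (adjusted p = 1.87e-07). A second Clec4a2 probe set lay below background and was not called in any of these comparisons.

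Clec5a, an activating receptor of myeloid cells that signals through Tyrobp, had group means above background in the GMP groups alone. Its wild-type GMP levels were 5.88, 5.70, 6.48, 5.80 and 5.70. In wild-type CMP they were 2.73, 2.98, 3.13, 2.93 and 3.84, in HSC 2.76, 2.45, 2.75, 2.55 and 3.45, and in CLP they ran from 2.43 to 3.05. No replicate of another wild-type population reached GMP. The difference was 2.79 ± 0.21 from CMP (adjusted p = 2.99e-14), 3.18 ± 0.19 from CLP (adjusted p = 2.97e-17) and 3.12 ± 0.21 from HSC (adjusted p = 2.02e-15). Because the dimmer groups lay below background, each of these is at least 2.46-fold.

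Clec4e and Clec4d are neighbouring genes whose products, Mincle and its partner, form a receptor for mycobacterial glycolipid that couples to Fcer1g. Clec4e was highest in wild-type GMP, at 7.48, 7.26, 7.08, 7.44 and 7.05. Wild-type CMP gave 4.64, 5.27, 3.74, 3.95 and 4.94, and no replicate overlapped (difference 2.75 ± 0.37, adjusted p = 1.35e-07, at least 5.45-fold). CMP was the lowest population for Clec4e, with a CMP minus CLP difference of -1.24 ± 0.34 (adjusted p = 0.00444) and a CMP minus HSC difference of -1.55 ± 0.37 (adjusted p = 0.00146). GMP exceeded CLP, which ran from 4.77 to 6.74, by 1.51 ± 0.34 (adjusted p = 0.000347). It exceeded HSC, at 4.86, 5.73, 6.23, 6.45 and 7.04, by 1.20 ± 0.37 (adjusted p = 0.00977), and this call was lost without HSC replicate 1 (0.90, adjusted p = 0.0613). The second Clec4e probe set was also higher in GMP than in CMP (1.28), CLP (0.94) and HSC (0.85), each called, whereas its CMP minus CLP (-0.34) and CMP minus HSC (-0.43) differences were not.

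Clec4d had another order. It was highest in wild-type CMP, at 9.04, 8.74, 7.99, 8.10 and 8.22, above every wild-type CLP replicate (6.02 to 7.32) and every wild-type HSC replicate (6.01 to 7.51). CMP exceeded CLP by 1.60 ± 0.27 (adjusted p = 1.13e-05) and HSC by 1.62 ± 0.30 (adjusted p = 6.04e-05). Wild-type GMP gave 7.83, 7.79, 7.29, 7.77 and 7.72. GMP exceeded CLP by 0.87 ± 0.27 (adjusted p = 0.00882) and HSC by 0.89 ± 0.30 (adjusted p = 0.018). The HSC call was lost without HSC replicate 1 (0.69, adjusted p = 0.0839) or replicate 2 (0.77, adjusted p = 0.056). GMP minus CMP was -0.73 ± 0.30 and did not pass (adjusted p = 0.058), although every CMP replicate was above every GMP replicate. Some alternative settings of limma called it, such as array weights (-0.73, adjusted p = 0.0046) and only these groups fitted (-0.73, adjusted p = 0.00768). By wild-type means, the 2 partner genes therefore stood at opposite ends in CMP: Clec4d at its highest and Clec4e at its lowest. The Clec4e mean there (4.51) was below background. These CMP differences cannot be told apart from separate processing of the CMP arrays. The probe set of Clec4d is of a type that can read transcripts of a gene family.

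Clec11a, which encodes a secreted growth factor for blood-forming and bone cells, was also highest in GMP. Wild-type GMP replicates were 6.81, 6.56, 6.47, 6.52 and 6.49. The CMP replicates gave 5.32, 5.05, 5.16, 5.11 and 5.29, and the HSC replicates 5.02, 4.69, 4.52, 4.51 and 5.78. CLP replicates ran from 3.97 to 6.44. The lowest GMP replicate was above every replicate of the other wild-type populations. The difference was 1.38 ± 0.27 from CMP (adjusted p = 0.000103), 1.47 ± 0.25 from CLP (adjusted p = 5.21e-06) and 1.67 ± 0.27 from HSC (adjusted p = 4.45e-06). The plots of single replicates for the 6 genes show these steps.

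**Figure D2:**
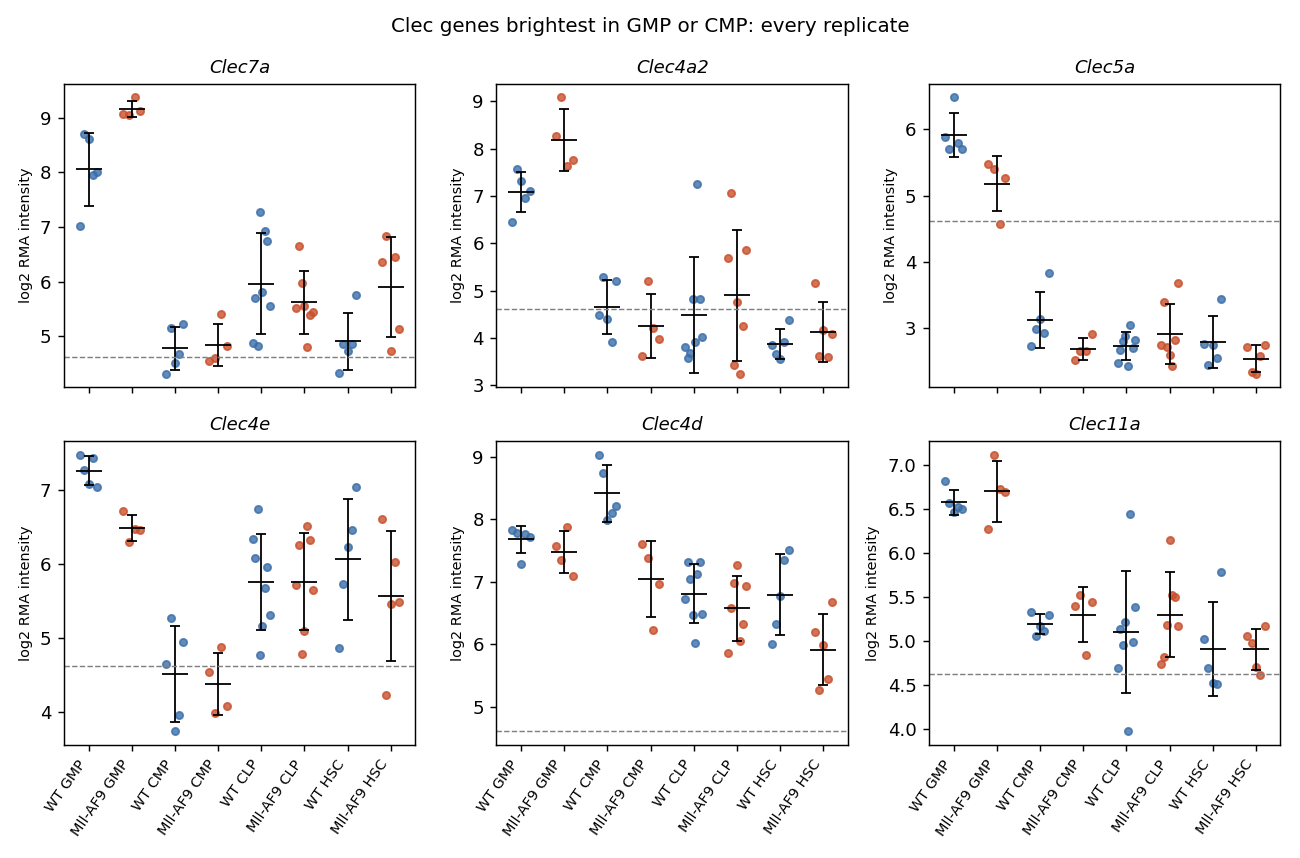
Log2 RMA intensity (vertical axis) of 6 Clec genes in every replicate (points) of the 8 groups (horizontal axis), wild type in blue and Mll-AF9 in orange; black marks are the mean with its SD and the dashed line is the background level of 4.61. Clec7a, Clec4a2, Clec5a, Clec4e and Clec11a step up in GMP, and Clec4d is highest in wild-type CMP.

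Clec2l and Clec2e, members of the Clec2 branch, were higher in GMP by smaller amounts. Clec2l was 4.66 to 5.17 in wild-type GMP against 3.89 to 4.44 in CMP (difference 0.68 ± 0.15, adjusted p = 0.000298, at least 1.18-fold), and exceeded CLP by 0.73 ± 0.13 and HSC by 0.55 ± 0.15, both called. Clec2e (0.52 from CMP, 0.59 from CLP, 0.46 from HSC) and Clec2m (0.33 from CMP) were called too, but lay below background in every group. The Clec2e call against HSC was lost without GMP replicate 1 or HSC replicate 5 (0.36 and 0.37, adjusted p 0.0796 and 0.0721). The Clec2m call was lost without any of 6 replicates (GMP replicates 2, 4 and 5 and CMP replicates 2, 3 and 5), with differences of 0.23 to 0.35 and adjusted p from 0.0534 to 0.189. Clec16a, which despite its symbol encodes an endosomal protein of autophagy, was higher in GMP than in HSC (0.56 ± 0.21, adjusted p = 0.0283). That call was lost without GMP replicate 1 or 4 or HSC replicate 2 or 3 (0.46 to 0.54, adjusted p 0.0526 to 0.0905). Clec3b, the plasma protein tetranectin, had group means from 4.22 to 4.70 and was called in no comparison.

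Clec2d and Clec2i, ligands of natural killer cell receptors of the Klrb1 family, ran the other way. Clec2d was 2.61, 2.71, 2.86, 3.00 and 2.77 in wild-type GMP, all below background. In wild-type HSC it was 4.67, 3.88, 4.65, 4.79 and 5.27, above every GMP replicate. GMP minus HSC was -1.86 ± 0.34 (adjusted p = 3.22e-05) and GMP minus CLP was -1.15 ± 0.31 (adjusted p = 0.0025), with both means below background. HSC was at least 1.03-fold higher than GMP when GMP was set at background. Clec2i was 3.65, 4.38, 3.67, 3.49 and 4.35 in GMP and 5.14, 5.24, 5.77, 4.22 and 5.01 in HSC, with 1 HSC replicate inside the GMP range. GMP minus HSC was -1.17 ± 0.35 (adjusted p = 0.00816, at least 1.38-fold). GMP minus CLP for Clec2i, -0.78 ± 0.32 (adjusted p = 0.0446), was lost without GMP replicate 1, 3 or 4 or CLP replicate 4, 6, 7 or 8 (-0.74 to -0.66, adjusted p 0.0655 to 0.116). A second Clec2i probe set gave -0.81 for GMP minus CLP, called, and -0.48 for GMP minus HSC, not called, but lay below background in all 8 groups (2.20 to 3.51).

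Between wild-type CMP and CLP, 2 Clec genes (7.69%) were higher in CMP, against 11.9% of all genes, and 3 (11.5%) were lower, against 11.8%. Between CMP and HSC, 1 (3.85%) was higher in CMP, against 11.7%, and 4 (15.4%) were lower, against 10.8%. The shares lie near those of all genes. Clec4d was the gene higher in CMP in both. The genes lower in CMP than in CLP were Clec4e, Clec7a and Clec2i. Those lower than in HSC were Clec4e, Clec2i, Clec2d and Clec10a. The Clec2i difference from HSC was -1.27 ± 0.35 (adjusted p = 0.00608) with no overlap of replicates. The Clec2d difference was -1.11 ± 0.34 (adjusted p = 0.0144), lost without CMP replicate 4 (-0.98, adjusted p = 0.0527). The Clec2i difference from CLP was -0.89 ± 0.32 (adjusted p = 0.0367), lost without CMP replicate 2, 3, 4 or 5 or CLP replicate 4, 6, 7 or 8 (-0.91 to -0.76, adjusted p 0.0555 to 0.0951). The Clec10a difference from HSC was -0.91 ± 0.34 (adjusted p = 0.0468), with the CMP mean below background, and it was lost without any single CMP replicate or HSC replicate 1, 2, 3 or 5 (-0.95 to -0.72, adjusted p 0.0565 to 0.148). The GMP minus CMP difference of Clec10a was 0.96 ± 0.34 (adjusted p = 0.0257), lost without GMP replicate 2 or 5 (0.88 and 0.85, adjusted p 0.0611 and 0.0708).

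Clec1b, the platelet receptor for podoplanin, was the other gene higher in CMP than in CLP (1.06 ± 0.32, adjusted p = 0.0103). Its wild-type CMP replicates were 6.50, 4.36, 4.18, 3.92 and 4.13, so replicate 1 alone was above background. Megakaryocyte and platelet markers averaged 8.31 in that replicate and 6.52 to 7.10 in the other 4. Without it the Clec1b difference was 0.59 and the call was lost (adjusted p = 0.146). Wild-type CLP ran from 2.96 to 4.20.

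Between wild-type CLP and HSC, limma called 0 Clec genes higher and 0 lower, against 0.258% and 0.055% of all genes. At an unadjusted p under 0.05 there were 3: Clec7a (1.05), Clec2d (-0.71) and Clec1b (-0.78), with adjusted p of 0.24, 0.426 and 0.371.

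The genotype comparisons asked which Clec genes differ in Mll-AF9 cells. Clec10a was higher in Mll-AF9 CMP and CLP and Clec4d was lower in Mll-AF9 CMP; no other Clec gene passed the test. In CMP, 1 Clec gene (3.85%) was higher, against 0.236% of all genes, and 1 (3.85%) was lower, against 0.187%. In CLP, 1 was higher, against 0.203%, and 0 were lower, against 0.143%. In GMP, 0 were higher and 0 lower by limma, against 0.17% and 0.0989%, with 6 at an unadjusted p under 0.05. In HSC, 0 were higher and 0 lower, against 0.022% and 0.033%, with 5 at an unadjusted p under 0.05. The median difference of the 26 genes was 0.06 for GMP, -0.01 for CMP, 0.15 for CLP and 0.02 for HSC, and that of all genes was -0.02, 0.00, 0.06 and 0.01. A test of whether the genotype difference was unequal among populations called 0 Clec genes by limma, against 0.214% of all genes, with 6 at an unadjusted p under 0.05, so no Clec gene was shown to respond in some populations and not in others.

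Clec10a encodes a lectin of macrophages and dendritic cells that binds galactose and N-acetylgalactosamine. In CMP it was 4.45, 4.43, 4.54, 4.42 and 4.35 in wild type, all below background, and 5.08, 4.82, 5.06 and 5.26 in Mll-AF9, all above it. The groups did not overlap, and the difference was 0.61 ± 0.11 (adjusted p = 0.0225), at least 1.36-fold. In CLP it ran from 4.17 over a median of 5.00 to 6.61 in wild type and from 5.74 over 7.22 to 7.60 in Mll-AF9. These groups overlapped, and the difference was 1.69 ± 0.35 (adjusted p = 0.035), or 3.22-fold. In HSC it was 5.79, 5.53, 5.18, 4.14 and 6.09 in wild type and 6.39, 6.94, 7.14, 6.76 and 6.92 in Mll-AF9. All 5 Mll-AF9 HSC replicates were above all 5 wild-type ones, yet the difference of 1.48 ± 0.32 did not pass over all genes (adjusted p = 0.137). It passed in the limma model of all 8 groups (adjusted p = 0.0237). In that model the CLP difference passed too (adjusted p = 0.000112), but the CMP difference did not (adjusted p = 0.9999). In GMP it was 4.79, 5.73, 5.43, 5.22 and 5.83 in wild type and 6.08, 5.63, 5.88 and 6.33 in Mll-AF9 (0.58 ± 0.22, adjusted p = 0.41). The Mll-AF9 mean was thus the higher in all 4 populations. With each population fitted alone, the difference passed the test in CMP and CLP.

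Clec4d in CMP was 9.04, 8.74, 7.99, 8.10 and 8.22 in wild type and 7.61, 7.38, 6.23 and 6.96 in Mll-AF9. Every Mll-AF9 replicate was below every wild-type one. The difference was -1.37 ± 0.27 (adjusted p = 0.0426), a 2.59-fold lower level. In HSC the Mll-AF9 replicates were 6.19, 5.26, 5.98, 5.45 and 6.68 and overlapped the wild type (-0.88 ± 0.34, adjusted p = 0.687). In GMP the difference was -0.20 (95% interval -0.62 to 0.21) and in CLP -0.24 (-0.76 to 0.28). The Clec4d difference passed in CMP alone, but it was not shown to be unequal among populations.

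These 3 calls were near the threshold. Clec10a in CMP was lost in 12 of 21 alternative settings, Clec4d in CMP in 12 of 21 and Clec10a in CLP in 14 of 25, always with the same sign. With the Y-linked level as a covariate the differences were 0.66 (adjusted p = 0.118), -1.12 (adjusted p = 0.458) and 1.38 (adjusted p = 1.00). The Clec10a call in CMP was lost when wild-type replicate 1, 2, 4 or 5, or replicate 1 or 4 of Mll-AF9, was left out (0.54 to 0.62, adjusted p 0.0544 to 0.0804). The Clec4d call was lost when wild-type replicate 1, 2, 4 or 5, or replicate 2 or 4 of Mll-AF9, was left out (-1.48 to -1.22, adjusted p 0.0526 to 0.117). The Clec10a call in CLP was lost when wild-type replicate 1, 2, 4, 5, 6 or 7, or replicate 1, 3, 5, 6 or 7 of Mll-AF9, was left out (1.54 to 1.77, adjusted p 0.0509 to 0.0873). Among wild-type replicates only, Clec10a in CLP was 4.17 to 5.75 in the 6 with Y-linked genes above 6 and 4.56 and 6.61 in the other 2. Clec4d in CMP was 7.99 to 9.04 in 3 and 8.10 and 8.22 in the other 2.

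Markers of other cells were read beside these calls. In CMP, late neutrophil markers averaged 4.72 to 6.71 per wild-type replicate and 3.79 to 6.00 per Mll-AF9 replicate, with 0 of 9 called, and S100a8 had means of 8.62 and 6.16. Monocyte and macrophage markers averaged 5.37 to 5.91 and 5.38 to 5.59, with Csf1r lower (-1.25, adjusted p = 0.00745). Conventional dendritic cell markers averaged 4.98 to 5.18 in wild-type and 4.76 to 5.01 in Mll-AF9 CMP, with H2-Ab1 lower (-1.20, adjusted p = 0.00345). Natural killer cell markers averaged 4.45 to 4.70 and 4.66 to 4.96, with Gzmb higher (1.03, adjusted p = 0.025). In CLP, conventional dendritic cell markers averaged 5.69 to 6.12 in wild type and 5.49 to 6.02 in Mll-AF9, monocyte and macrophage markers 6.13 to 7.22 and 6.39 to 6.90, late neutrophil markers 3.80 to 9.01 and 5.59 to 9.74, and natural killer cell markers 4.15 to 5.69 and 5.24 to 6.26, with Gzma higher (3.46, adjusted p = 3.25e-05). In HSC, conventional dendritic cell markers averaged 5.67 to 5.96 in wild type and 5.32 to 5.68 in Mll-AF9. Of the 9 conventional dendritic cell markers, 4 or 5 had a mean below background in each group. Xcr1, Cd209a, Itgax and Batf3 were below it in all 8. Others such as Wdfy4 (7.10 to 9.32) and H2-Ab1 (4.74 to 7.67) were above it in all 8. The part of these markers in the Clec10a and Clec4d differences was not tested.

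**Figure D3:**
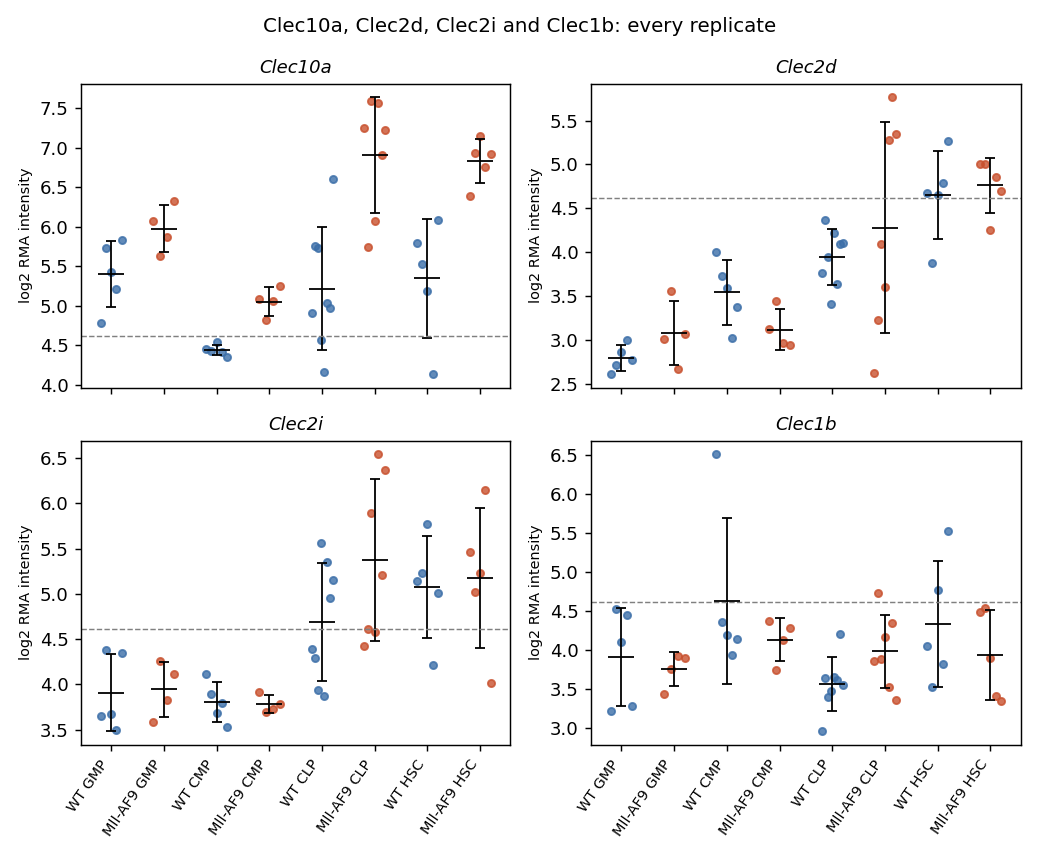
Log2 RMA intensity (vertical axis) of Clec10a, Clec2d, Clec2i and Clec1b in every replicate (points) of the 8 groups, wild type in blue and Mll-AF9 in orange, with mean and SD in black and the background level of 4.61 dashed. The Mll-AF9 mean of Clec10a lies above the wild-type mean in all 4 populations. Replicates above background for Clec2d are 4 of wild-type HSC, 4 of Mll-AF9 HSC and 3 of Mll-AF9 CLP. For Clec1b they are 1 of wild-type CMP, 2 of wild-type HSC and 1 of Mll-AF9 CLP.

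In GMP, genotype differences of opposite sign appeared that did not pass. Clec7a was 9.06, 9.06, 9.37 and 9.12 in Mll-AF9, above every wild-type replicate (1.10 ± 0.28, adjusted p = 0.158). Clec4a2 was 8.26, 9.08, 7.64 and 7.75, also above every wild-type replicate (1.10 ± 0.29, adjusted p = 0.176). Clec4e was 6.71, 6.30, 6.47 and 6.46, below every wild-type replicate (-0.78 ± 0.17, adjusted p = 0.0922), and so was Clec5a at 5.48, 5.40, 4.57 and 5.27 (-0.73 ± 0.22, adjusted p = 0.269). Wild-type GMP replicate 1 was the lowest of its group for Clec7a, Clec4a2 and Clec10a. It was the highest for Clec4e, Clec4d, Clec11a, Clec2l and Clec2e. Its array had the largest 3′ minus 5′ difference of control probe sets in GMP (4.70). Monocyte and macrophage markers averaged 7.35 to 7.95 in wild-type and 7.57 to 7.92 in Mll-AF9 GMP, with Mpeg1 higher (0.96, adjusted p = 0.0204); their part was not tested. With array weights, limma called Clec7a (0.98, adjusted p = 0.0154), Clec4a2 (0.97, adjusted p = 0.0399) and Clec4e (-0.69, adjusted p = 0.0344). Without replicate 1 it called Clec7a (0.84, adjusted p = 0.0277) and Clec4e (-0.72, adjusted p = 0.0382). The second Clec4e probe set gave -0.46 (adjusted p over probe sets = 0.436). Clec11a (0.13, 95% interval -0.27 to 0.52) and Clec4d (-0.20, -0.62 to 0.21) had intervals spanning 0 in GMP.

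The remaining genotype differences of genes above background were smaller or had wide intervals. In HSC, Clec7a was 6.35, 6.83, 4.73, 6.45 and 5.12 in Mll-AF9 and 4.33 to 5.75 in wild type (0.99 ± 0.39, adjusted p = 0.694), and Clec16a differed by 0.55 ± 0.23 (adjusted p = 0.753). In CLP, Clec2i differed by 0.68 (95% interval -0.05 to 1.42) and Clec1b by 0.42 (0.01 to 0.83, adjusted p = 0.526). In CMP, Clec2d differed by -0.43 and Clec5a by -0.44 (adjusted p 0.617 and 0.626). Clec2l and Clec3b had intervals that spanned 0 in all 4 populations.

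**Figure D4:**
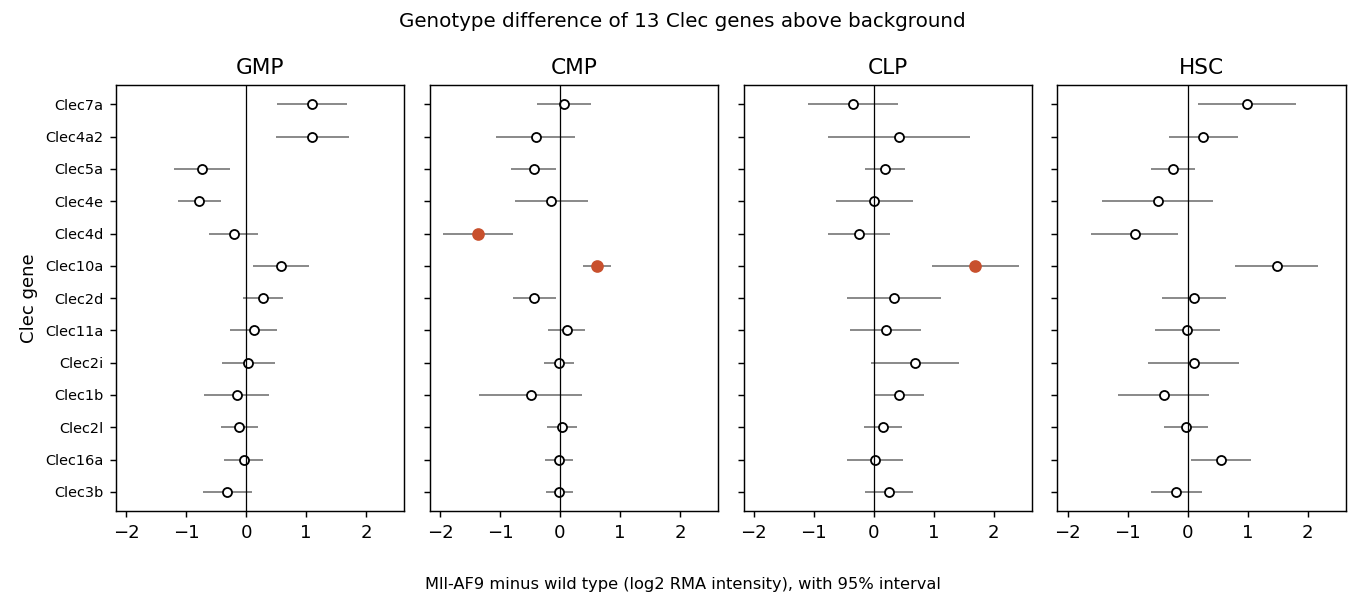
Difference between Mll-AF9 and wild type (horizontal axis, log2 RMA intensity) for the 13 Clec genes above background (vertical axis), 1 panel per population; points are differences, lines are 95% intervals not adjusted for the number of genes, and filled points passed an adjusted p of 0.05. The filled points are Clec4d and Clec10a in CMP and Clec10a in CLP.

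Mll-AF9 CLP replicates differed among themselves for Clec2d. Replicates 5, 6 and 7 were at 5.28, 5.76 and 5.35, and replicates 1 to 4 at 2.62, 3.23, 4.10 and 3.60. The interleukin-7 receptor gene Il7r was 8.03, 7.70 and 8.50 in the former and 10.41, 10.70, 10.91 and 10.17 in the latter. HSC markers averaged 7.91, 8.64 and 7.80 in the former and 6.64 to 7.68 in the latter. Late neutrophil markers averaged 5.59 to 5.92 in the former and 6.74 to 9.74 in the latter. Their part in the Clec2d levels was not tested. Wild-type CLP showed Clec2d from 3.41 to 4.37 over Il7r levels of 7.16 to 10.95. The same 3 Mll-AF9 replicates gave Clec2i at 6.54, 5.21 and 6.37, and replicates 1 to 4 gave 4.42, 4.61, 5.89 and 4.58, so that for Clec2i the 2 sets overlapped.

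The dim Clec genes, with no group mean above background, were Clec4a3, Clec1a, Clec2e, Clec14a, Clec4f, Clec2g, Clec2m, Clec4g, Clec4b1, Clec4n, Clec12b, Clec2h and Clec18a. They include genes known from other cells, such as Clec14a of endothelium, Clec4f of Kupffer cells and Clec4g of liver sinusoids. Clec4a3, a neighbour of Clec4a2, had the widest range among them (1.52), from 2.54 in Mll-AF9 CMP to 4.05 in Mll-AF9 GMP. Its genotype difference in GMP was 0.62 ± 0.19 (adjusted p = 0.284), below background.

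Genes that work with Clec proteins were read from 3 lists. Of 21 listed signalling partners of Clec receptors, 18 were measured. Between wild-type GMP and CMP, 9 were higher in GMP and 1 lower, against 20.3% and 11.4% of all genes, with a median difference of 0.56 against 0.13 for all genes. Between GMP and CLP, 4 were higher in GMP and 5 lower, against 28.3% and 14.7% of all genes (median -0.02, all genes 0.15). Between GMP and HSC, 3 were higher and 6 lower, against 24.6% and 13.4% of all genes (median -0.24, all genes 0.14). The adaptor Tyrobp averaged 10.32 in GMP, 8.71 in CLP, 7.79 in HSC and 6.48 in CMP, and Fcer1g 7.77, 6.71, 5.99 and 5.10. Clec7a had its highest mean in GMP too, but its steps from CLP to HSC and from HSC to CMP did not pass the test. The kinase Syk exceeded CMP in GMP by 0.85 (adjusted p = 0.0122) and did not pass against CLP (0.10) or HSC (-0.28). Against CLP and HSC, 0 partners were higher in CMP and 12 were lower. Of all genes, 11.9% (CLP) and 11.7% (HSC) were higher and 11.8% (CLP) and 10.8% (HSC) were lower. Nfatc2, a transcription factor downstream of calcium signals, averaged 7.80 in HSC and 7.62 in CLP against 5.23 in GMP and 4.72 in CMP. By genotype the only call was Blnk, the adaptor of the B-cell receptor, which was lower in Mll-AF9 CLP (8.21 to 5.44, adjusted p = 0.00317).

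Of 11 ligands and partner receptors, 6 were measured, and none was called by genotype. Klrb1f, a natural killer cell receptor for a Clec2 ligand, was higher in wild-type GMP than in CMP (2.89), CLP (1.93) and HSC (2.13), all called. Thbd, whose product is a lectin-fold regulator of coagulation, averaged 5.43 in GMP and 4.59 in HSC, and Klrb1b stayed below background. Of 39 C-type lectin-fold receptors under other symbols, 36 were measured, and 9 were higher and 0 lower in wild-type GMP than in CMP, where 20.3% of all genes were higher and 11.4% lower. Against CLP, 6 were higher in GMP and 7 lower, where 28.3% of all genes were higher and 14.7% lower. Against HSC, 7 were higher and 6 lower, where 24.6% of all genes were higher and 13.4% lower. Olr1, the lectin-like receptor for oxidised lipoprotein, had a wild-type mean of 5.28 in GMP and of 2.66 to 2.86 in the other populations, a GMP step like that of Clec5a. Cd93 and Cd72 were instead brightest in HSC and CLP (Cd93 10.19 and 10.15, against 7.79 in GMP; Cd72 6.76 and 6.70, against 4.95). By genotype, Selp (P-selectin) was higher in GMP (1.72), CMP (1.70) and CLP (1.62), and the natural killer receptor gene Klra8 was higher in CLP (1.66, adjusted p = 0.00242) but had a mean below background there.

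Genes whose 8 group means followed those of the widest-ranging Clec genes were listed among 11421 genes above background, as a description over 8 points that share the authors' normalisation. For Clec7a they were Lmo1 (Pearson r = 0.996), Zfp746, Ctsb, Il3ra and Chst13. For Clec4a2 they were Sgms2 (r = 0.995), Afap1, Rab9, Sec61b and Mgam. For Clec5a they were 4930455C13Rik (r = 0.995), Fig4, Zdhhc12, BC049762 and Wnt7b. Among Clec genes, Clec4a2 and Clec11a had r = 0.979, Clec5a and Clec11a r = 0.962, and Clec2d and Clec2i r = 0.905. Clec4d had r = -0.05 with its partner Clec4e and r = -0.74 with Clec10a.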

How the data were processed

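RNA of 43 replicates, 51 arrays, was measured in the 8 groups that the sample titles give. The deposited values are linear intensities of probe sets, made with RMA per the submitters' processing notes. Its version and which arrays were normalised jointly are not given in the sources used. log2 was taken, and repeat CMP runs were averaged for 8 replicates.

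Of 45101 probe sets, 64 were controls, 10092 had several genes or none in the platform annotation and 34945 had 1, whose symbol was updated from RefSeq's GRCm38.p6 gene table. Background, 4.61, was the 95th percentile of the means of 115 olfactory, vomeronasal, taste receptor and keratin-associated genes. A fold given as "at least" sets the dimmer group at background or above.

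Differences were tested with limma 3.58.1 in R 4.3.3 (lmFit, eBayes with an intensity trend), genotypes within 1 population and populations in a model of all 8 groups. Calls were made at 0.05 after Benjamini-Hochberg adjustment over the 18193 genes, and the fits were tested on simulated data. Alternatives covered probe set choice, the trend, a background filter, an offset, array weights, CMP runs, covariates, a replicate block, the model and each replicate left out.

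Genes above background are named with values. Called genes and the 8 with the widest range have every replicate, or the lowest, median and highest. Companion list genes are named where called by genotype, otherwise among the 3 widest wild-type ranges; Fcer1g, Syk and Clec2e, Clec2m and Clec4a3 were named after their values were seen. The members, lists and rules were chosen with earlier results of these data known. The number of arrays limits the precision.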

Additional observations from a re-analysis of the deposited data

Results flagged for a closer look

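Only gene and group combinations with a group mean above background were searched. Of 62 such combinations of 4 to 10 replicates, 5 had a replicate that stood apart from its group by Dixon's criterion. Chance does this in about 1 in 20 groups. Wild-type CLP for Clec4a2, with a mean of 4.49 and a highest replicate of 7.26, was therefore not searched. In wild-type GMP, replicate 3 was high for Clec5a (6.48, others 5.70 to 5.88) and low for Clec4d (7.29, others 7.72 to 7.83), and replicate 1 was high for Clec11a (6.81, others 6.47 to 6.56). Wild-type CMP replicate 1 was high for Clec1b (6.50, others 3.92 to 4.36). Mll-AF9 CLP replicate 3 was high for Clec16a (6.14, others 4.99 to 5.41).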

How the results depend on the processing

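No Clec difference that was called as reported changed sign under any alternative run. The number of Clec genes called by genotype in CMP, 2, fell to 1 with the mean of all probe sets, without the trend, over genes above background only, with the first CMP run alone and with the 3′ minus 5′ covariate, and to 0 with the second CMP run alone, the Y-linked covariate and the model of all 8 groups. In CLP, 1 became 0 without the trend and with either covariate. In GMP, 0 became 3 with array weights, and in HSC 0 became 1 in the model of all 8 groups. The test of unequal genotype differences went from 0 to 1 (Clec5a, adjusted p = 0.0443) with 32 added to the intensity. Between wild-type CMP and CLP, 5 became 8 with array weights, and between CMP and HSC 5 became 8 with only those groups fitted. The cause of these changes was not tested.

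With each replicate left out in turn, genotype calls ranged from 0 to 2 in GMP, 0 to 2 in CMP, 0 to 1 in CLP and 0 to 0 in HSC. Population calls ranged from 7 to 9 (GMP and CMP), 9 to 10 (GMP and CLP), 9 to 11 (GMP and HSC), 4 to 6 (CMP and CLP), 3 to 6 (CMP and HSC, the lowest without wild-type CMP replicate 4) and 0 to 0 (CLP and HSC), with 10 to 13 for any difference among populations and 0 to 0 for unequal genotype differences.

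Over all genes, deviations of same-numbered replicates of the 2 genotypes had low correlations. These ran from -0.12 to 0.04 in GMP, -0.02 to 0.19 in CMP, -0.29 to 0.10 in CLP and -0.22 to 0.07 in HSC. In CMP, GMP markers of replicates 1 to 4 averaged 8.52, 9.59, 8.99 and 8.20 in wild type. They averaged 8.27, 9.28, 8.78 and 7.81 in Mll-AF9, the same order, while HSC markers kept no common order. The numbers were not taken to pair samples, and whether they do so in CMP was not tested. With the replicate number as a block, the CMP count was 1: Clec4d (-1.42, adjusted p = 0.00182), and not Clec10a (0.59, adjusted p = 0.0799). Clec10a in CLP was 1.89 (adjusted p = 0.0303).

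Levels below background give no order, which limits the 13 dim Clec genes and every difference whose dimmer group lay there.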
